A study of Mus musculus with 6 samples.

Results

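The genes described here are protein-coding genes of the mouse nucleus whose exonic length in the deposited table equals their full span from start to end, so that the table gives them no intron. They were measured by bulk RNA sequencing of whole testis in 3 cKO and 3 WT libraries. The cKO group carries a conditional knockout that the series title places at SRSF2, a splicing factor of the SR protein family, in the Sertoli cell, the somatic cell of the tubule that supports germ cells. Both groups are labelled as testis with no treatment; no source used here gives the Cre driver, the exact alleles, the strain or the age of the mice. Whether each library stands for its own animal is not stated in the labels, so the p-values reflect only the scatter of these libraries, part of which may be technical. The table holds 1350 intronless protein-coding genes among 55850 gene rows. Members were selected on their mean FPKM (fragments or reads per kilobase of gene, relative to the depth of the library) over the 6 libraries, which had to be at least 5. This left 189 single-exon genes, beside 8058 other protein-coding genes past the same mean. The mean was 0 for 598 of the 1350 and at least 1 for 315. The cKO minus WT contrast did not enter the selection, but the question was posed with earlier results of these data known. Just inside the limit lay Spin4 and Fam43a, with means of 5.08 and 5.12 FPKM, and just outside it Hps6 and Exoc8, with 4.87 and 4.80 FPKM.

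A gene without introns makes a messenger RNA that needs no splicing, so a splicing factor has no intron to act on in it. Many such genes arose by retrotransposition of a spliced messenger RNA, and others belong to old intronless families such as the replication-dependent histones. SR proteins also bind exons and couple transcripts to nuclear export and 3' end formation, so intronless messages can still meet them. Messenger RNAs of replication-dependent histones carry no poly(A) tail and end in a short stem-loop that is bound by the stem-loop binding protein.

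The label was checked against the GENCODE M21 annotation of GRCm38, in which all 189 genes were found. In 146 of them every annotated transcript had 1 exon. In the other 43 at least 1 annotated transcript was spliced, and the table's length covers the introns too. Rpl9, Gpx1, Rps13, Atf4, Dynll1, Id1, Scx, Tssc4, Cebpa, H2aj, Sox12, Rpl22l1, Ccdc85b, Rbm15b, Rnf208 and Gm7879 are among the 43. A near-identical copy, defined as another gene matching at least 50% of the longest transcript at 95% identity or more, exists for 28 members, and 54 share exon bases with another gene, 46 of them on the opposite strand. How the authors' counting divided shared reads and whether it used strand is not stated in any source used here, so values of these members are uncertain. H1f0, H2ax, H1f10, Pcbp1, Jund, Jun, Cebpb, Sox4, Tssc4, Bola2, Rps13, Ranbp6, Klhl9, Cebpa, H2aj and Purb, described below, are among the 54.

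The libraries held 16722177, 17281330 and 16185976 recovered reads in cKO and 16070287, 16479907 and 16367856 in WT. Srsf2, the targeted gene, had 74.0, 87.3 and 87.3 FPKM in cKO and 127, 96.7 and 102 FPKM in WT. Every cKO library lay below every WT library, with a log2 difference of -0.38 (limma adjusted p = 0.384). All 10 Sertoli cell markers had negative differences (median log2 difference -0.39), 6 of them below an unadjusted limma p of 0.05 and 0 below an adjusted one (lowest adjusted p = 0.316), with a summed level of 565 to 712 FPKM in cKO against 914 to 1180 in WT. Amh alone held most of this sum, with 454, 366 and 330 FPKM in cKO and 907, 619 and 777 FPKM in WT. All 7 tested germ cell markers had positive differences (median 0.40), 2 of them below an unadjusted limma p of 0.05 and 0 below an adjusted one (lowest adjusted p = 0.372), with sums of 168 to 250 FPKM in cKO against 126 to 222 in WT. The 3 red blood cell markers were positive too (median 0.59, 1 below an unadjusted limma p of 0.05). At that threshold 7.68% of all tested genes were lower and 4.65% higher. The 18S ribosomal RNA took 0.727% to 0.835% of reads in cKO and 1.58% to 2.09% in WT, and mitochondrial genes took 2.39% to 2.97% in cKO and 1.66% to 1.98% in WT. In bulk tissue, fewer cells of a type and less RNA per cell cannot be told apart. The marker lists also differed in GC content, with medians of 53.7% for Sertoli cells and 44.9% for germ cells. GC content moved with the differences over all genes, as given below, and its part in the marker values was not tested.

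The stem-loop of replication-dependent histone messages was found in 3 histone members, and these sites are shown because they mark which of the histones can end without a poly(A) tail. The 16-base motif searched on the sense strand of GENCODE M21 transcripts is a stem arm GGNNCT, a loop NTTN and a second arm AGNNCC without a gap. It is in capitals below with 4 bases on either side, 5' to 3'. The sites lie on GRCm38 at chr13:23739508-23739531 on the plus strand for H1f2, at chr9:44335236-44335259 on the plus strand for H2ax and at chr13:22040962-22040985 on the minus strand for H4c9.
H1f2: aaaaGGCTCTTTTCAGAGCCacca
H2ax: caaaGGCCCTTTTAAGGGCCacca
H4c9: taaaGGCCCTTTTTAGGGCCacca
The motif was found in 4 of the 189 members, these 3 and Ccdc85b, and in 156 of 21766 protein-coding genes (0.717%). It was not found in H1f0, H1f10 or H2aj, the other histone members.

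Single-exon genes lay lower in cKO than in WT testis as a body, while the other protein-coding genes were centred near 0. The median log2 difference was -0.16 in the 189 members, -0.0098 in the 8058 others and 0.00493 over the 14238 genes tested, all on the log2(FPKM + 1) scale, which understates differences of low genes. Of the members, 141 (74.6%) had a negative difference, against 51.5% of the others. The middle of the distribution ran from -0.34 (lower quartile) to 0.00521 (upper quartile), and the extremes were Mafa at -0.87 and Gm7879 at 0.73. No single gene among the members passed an adjusted p of 0.05 in limma, where 2 of 14238 genes did (0.014%). With limma voom on the recovered reads 0 members passed as well.

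At an unadjusted limma p under 0.05, 45 members (23.8%) were lower in cKO, where 7.68% of all tested genes were. Only 6 members (3.17%) were higher, where 4.65% of all tested genes were. Among the 8058 other protein-coding genes the shares were 9.51% lower and 4.72% higher. In 51 members all 3 cKO libraries lay below all 3 WT libraries, which is 27.0% of the members against a background of 9.92%. In 7 members (3.70%) all cKO libraries lay above, against a background of 8.69%. These counts describe the list and carry no test of their own. The count of lower members was 17 without cKO replicate 2, 16 without cKO replicate 3 and 23 without WT replicate 3, and the count of higher members was 10 without WT replicate 1 and 3 without WT replicate 3.

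**Figure D1:**
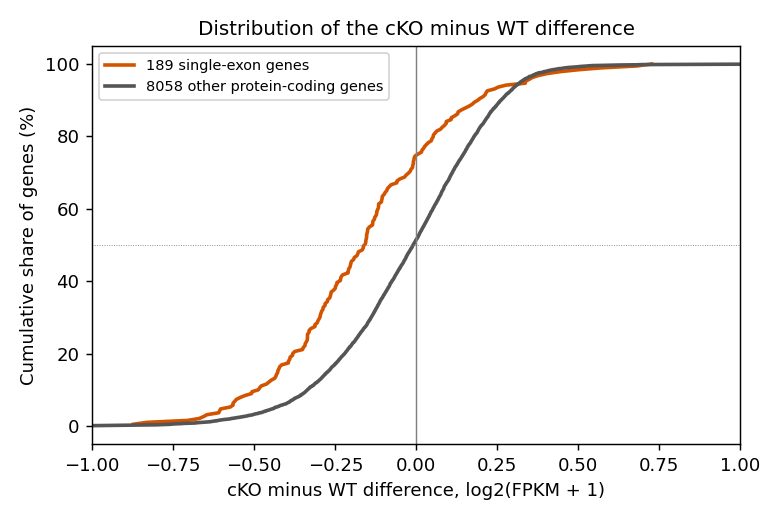
Cumulative share of genes (%) against the cKO minus WT difference on the log2(FPKM + 1) scale, for the 189 single-exon genes and the 8058 other protein-coding genes. The axis is drawn from -1 to 1. The curve of the single-exon genes lies to the left over most of its range and meets the other at its upper end, with a median of -0.16 against -0.0098, and crosses 0 at 74.6% of its genes against 51.5%.

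Both annotation classes of members had negative medians. The 146 genes with 1 exon in every transcript had a median log2 difference of -0.16, and the 43 with an annotated spliced transcript had -0.19. The 54 members that share exon bases with another gene had a median of -0.21, and the 135 that do not had -0.16. The 28 members with a near-identical copy stood apart, with a median of -0.000546 and equal numbers of 14 below and 14 above 0, while the 161 without a copy had a median of -0.19. Intronless genes below the limit, with a mean of 1 to 5 FPKM, numbered 126 and had a median of -0.052.

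The library values show which libraries carried the difference. Each gene's log2 value was taken as its deviation from its mean over the 6 libraries, and the median over members was taken per library. It was -0.062, -0.12 and -0.12 in cKO and 0.18, -0.046 and 0.13 in WT. The groups did not overlap, but WT replicate 2 lay below 0 and close to cKO replicate 1. Relative to the median of the other protein-coding genes in the same library, the members stood at -0.057, -0.11 and -0.11 in cKO and at 0.16, -0.031 and 0.10 in WT. The gap between members and others in the median log2 difference was -0.15 with all libraries and -0.23 without WT replicate 2. Members took 1.29%, 1.28% and 1.24% of the recovered reads in cKO and 1.496%, 1.31% and 1.45% in WT.

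**Figure D2:**
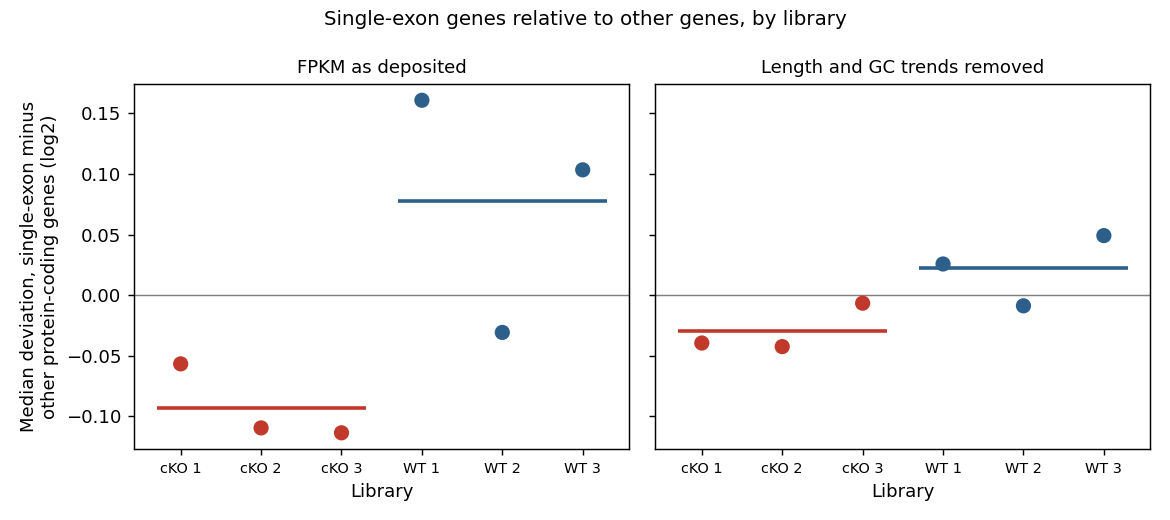
Median deviation of the single-exon genes minus that of the other protein-coding genes (log2) in each library, as deposited (left) and after each library's trends on length and GC content were removed (right); horizontal bars are group means. As deposited, the cKO libraries sit between -0.11 and -0.057 and the WT libraries between -0.031 and 0.16; with the trends removed, cKO replicate 3 at -0.00655 lies above WT replicate 2 at -0.00872.

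GC content moved with these differences. Members had a median GC content of 54.2% in the longest transcript and a median table length of 2262 bases, against 50.2% and 4327 bases in the others. The 45 lower members had a median GC content of 57.6% (43.9% to 71.3%), and the 6 higher ones had 40.8% (35.3% to 47.9%). Across the 189 members, the log2 difference and GC content had a Pearson r of -0.59 and a Spearman rho of -0.56, and across 8050 other genes r was -0.66 and rho -0.70. These are correlations across genes that share the same 6 libraries, and genes are not independent replicates. With log2 length the members' r was 0.032 and rho 0.13, while across the 8050 other genes r was 0.38 and rho 0.38.

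Within quintiles of GC content the members still lay below the others, by less than overall. In quintile 1, the lowest, the medians were 0.19 in 18 members and 0.21 in 1630 others, and in quintile 2 they were -0.0091 in 33 members and 0.095 in 1615 others. In quintile 3 the medians were -0.072 in 26 members and -0.0053 in 1621 others. In quintile 4 they were -0.23 in 40 members and -0.12 in 1608 others, and in quintile 5 they were -0.29 in 72 members and -0.23 in 1576 others. The gap was thus negative in all 5 quintiles, from -0.10 in quintile 4 to -0.018 in quintile 1, which rests on 18 members. Members and others were not matched in GC content or length within a quintile. In quintile 5 the members had medians of 59.1% and 1765.5 bases, and the others 58.2% and 3346 bases. In quintiles of exonic length the gap was -0.036, -0.15, -0.085 and -0.17 from quintile 1 to quintile 4, and 0.066 in quintile 5, the longest, which holds 3 members.

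**Figure D3:**
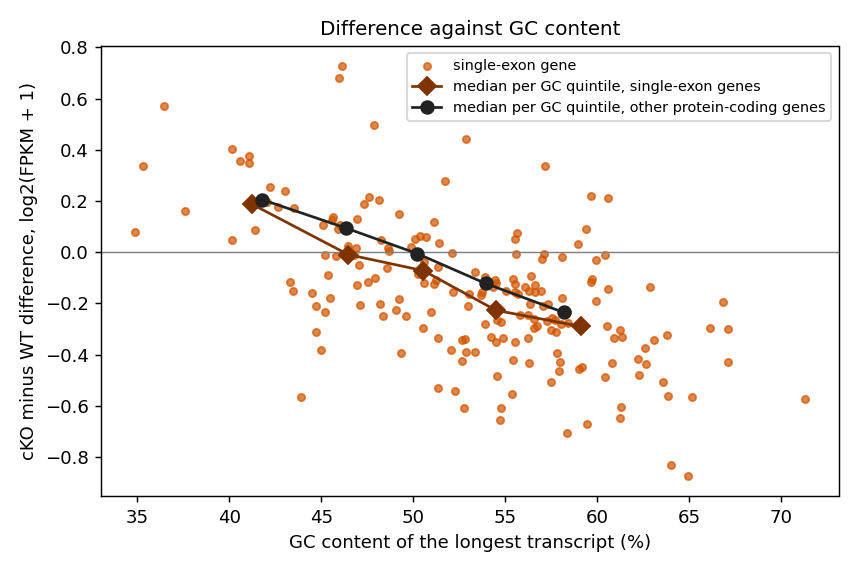
cKO minus WT difference on the log2(FPKM + 1) scale against the GC content (%) of the longest transcript, with 1 point per single-exon gene; diamonds and circles join the medians of single-exon and other protein-coding genes in quintiles of GC content. Medians decline from 0.19 in the lowest to -0.29 in the highest quintile for single-exon genes, and from 0.21 to -0.23 for the others.

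The dependence on GC content differed between libraries of a group. In the other protein-coding genes, the median deviation of the highest GC quintile minus that of the lowest was 0.066, -0.38 and -0.36 in cKO and 0.21, 0.22 and 0.26 in WT. The first cKO library thus had a small positive value, and the other cKO libraries had negative ones. When each library's smooth trends on length and GC content were removed, the members' gap became -0.048, and -0.074 with the GC trend alone. Per library it was then -0.039, -0.042 and -0.00655 in cKO and 0.026, -0.00872 and 0.049 in WT, and the groups overlapped. After this removal 23 of the 189 members were lower at an unadjusted p under 0.05, where 5.42% of all genes in that fit were. Set against other genes of at most 4798 bases, the 90th percentile of member length, the gap was -0.072. Of 55 members named by the rule, 40 moved by over 1.5 times or turned sign with both trends removed, and 33 did so when 1 library was left out, 26 of them without WT replicate 1. The part of GC content, of library preparation and of cell make-up in the difference was not tested.

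Members with 1 exon stood at the low end of a gradient in exon number across the other protein-coding genes. The 146 members with 1 exon had a median log2 difference of -0.16. The median log2 difference of the other protein-coding genes was -0.12 in 239 genes with at most 2 exons in a transcript, -0.086 in 1626 with 3 to 5, -0.035 in 2591 with 6 to 10, 0.019 in 2441 with 11 to 20 and 0.077 in 1152 with 21 or more. With the length and GC trends removed, the members with 1 exon had -0.041, the genes with 2 exons -0.022, those with 3 to 5 -0.034 and those with 21 or more 0.036. The 43 members with a spliced transcript are not part of this gradient and did not rise with exon number. As deposited, their medians were -0.19 in 25 with at most 2 exons, -0.13 in 14 with 3 to 5 and -0.21 in 3 with 6 to 10. The 1 member with 11 to 20 had -0.24.

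**Figure D4:**
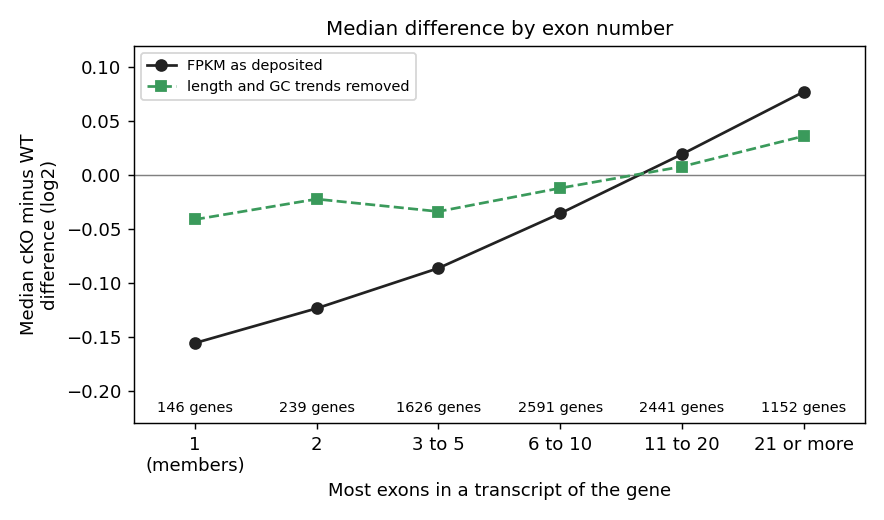
Median cKO minus WT difference (log2) by the highest number of exons in a transcript of the gene, for the 146 members with 1 exon and for other protein-coding genes with more, as deposited (circles) and with length and GC trends removed (squares). The medians run from -0.16 at 1 exon to 0.077 at 21 or more, and from -0.041 to 0.036 with the trends removed.

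The histone list held 5 members, all with a negative difference (median log2 difference -0.38), and 3 of them were below an unadjusted limma p of 0.05. Of all members 23.8% were lower at that threshold, and of all tested genes 7.68%. With the length and GC trends removed the median was -0.16. H1f0, the linker histone of cells that have stopped dividing, had 169, 184 and 191 FPKM in cKO and 230, 210 and 273 FPKM in WT. The groups did not overlap, with a log2 difference of -0.38 (SE 0.15, limma adjusted p = 0.382). H2ax, the H2A variant phosphorylated at DNA breaks, whose stem-loop is printed above, had 173, 141 and 143 FPKM in cKO and 233, 188 and 217 FPKM in WT, a log2 difference of -0.48 (SE 0.15, limma adjusted p = 0.372). H1f10, another linker histone, had 54.8, 48.4 and 42.5 FPKM in cKO and 81.8, 62.3 and 74.5 FPKM in WT, a log2 difference of -0.57 (SE 0.15, limma adjusted p = 0.372). In both genes all cKO libraries lay below all WT libraries. H1f10 has the highest GC content of the members, 71.3%, and its difference was -0.14 with the length and GC trends removed, where H2ax had -0.16 and H1f0 -0.29.

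H1f2 and H4c9, the other histones with a printed stem-loop, had lower levels. H1f2, a replication-dependent linker histone, had 14.3, 18.8 and 15.5 FPKM in cKO and 19.9, 12.8 and 22.9 FPKM in WT. The groups overlapped (log2 difference -0.15, limma adjusted p = 0.766). H4c9, a replication-dependent core histone, averaged 9.95 FPKM in cKO and 13.1 FPKM in WT (log2 difference -0.34, limma adjusted p = 0.467). H2aj, an H2A variant that the list did not hold, had 10.3, 10.5 and 11.1 FPKM in cKO and 19.8, 11.9 and 15.0 FPKM in WT, with no overlap (log2 difference -0.48, limma adjusted p = 0.379). A kit that captures poly(A) tails reads stem-loop histones poorly, and the label names an mRNA-Seq kit without its capture step.

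The genes that process histone messages did not lie lower as a list. Of 14 tested, 5 had a negative difference (median 0.044). Of all tested genes, 7.68% were lower and 4.65% higher at an unadjusted limma p under 0.05. In the list 0 were lower and 1 was higher. That was Npat, the activator of histone transcription, with 11.02, 11.3 and 13.0 FPKM in cKO and 8.22, 10.3 and 8.74 FPKM in WT (log2 difference 0.35, limma adjusted p = 0.379). Of 28 tested DNA replication genes, 20 were negative (median -0.12), 2 were lower and 0 higher at that threshold. The counts of lower and higher genes do not exceed what the shares over all tested genes would give by much. E2f1, the S-phase transcription factor, had 19.3, 17.5 and 17.2 FPKM in cKO and 22.4, 22.3 and 22.6 FPKM in WT (log2 difference -0.30, limma adjusted p = 0.379). Gins2, of the replicative helicase, had a log2 difference of -0.33 (limma adjusted p = 0.380), and Tk1, thymidine kinase, -0.27 (limma adjusted p = 0.405). With the length and GC trends removed the values were 0.14 for Npat and -0.091 for E2f1. The median GC content was 46.5% in the histone processing list and 49.3% in the DNA replication list. Other protein-coding genes in the GC quintiles that hold these values, 2 and 3, had median log2 differences of 0.095 and -0.0053.

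Of 18 tested mRNA export genes, 12 were positive (median 0.075). At an unadjusted limma p under 0.05, 0 were lower and 1 was higher, against 7.68% and 4.65% of all tested genes. Thoc2, a scaffold of the THO complex, had 10.1, 11.2 and 14.5 FPKM in cKO and 6.48, 9.60 and 9.19 FPKM in WT (log2 difference 0.46, limma adjusted p = 0.385). Its value was 0.15 with the length and GC trends removed and 0.30 without WT replicate 1. Alyref, the export adaptor, had 20.98, 25.2 and 20.7 FPKM in cKO and 32.3, 23.6 and 27.4 FPKM in WT (log2 difference -0.30, limma adjusted p = 0.437). Both differences did not pass over all genes. The median GC content of the export list was 46.3%, and other protein-coding genes in that GC quintile, 2, had a median log2 difference of 0.095.

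The 7 genes of the AP-1, C/EBP and immediate early list had a median log2 difference of -0.37, 6 of 7 were negative, 3 were lower at an unadjusted limma p under 0.05 and 0 passed an adjusted one. At the unadjusted threshold 23.8% of all members and 7.68% of all tested genes were lower. The median GC content of this list was 62.6%. Ier5l, an immediate early response gene, had 19.8, 14.7 and 13.6 FPKM in cKO and 25.2, 21.4 and 24.9 FPKM in WT (log2 difference -0.56, SE 0.16, limma adjusted p = 0.372). Its relative Ier5 had 18.6, 14.3 and 16.3 FPKM in cKO and 30.1, 19.4 and 24.4 FPKM in WT (log2 difference -0.54, limma adjusted p = 0.378). Neither gene's groups overlapped. Cebpa, a basic leucine zipper factor of differentiated cells, averaged 21.3 FPKM in cKO and 27.9 FPKM in WT, again without overlap (log2 difference -0.37, limma adjusted p = 0.379).

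Other members of that list overlapped between groups. Jund, an AP-1 subunit, had 106, 96.3 and 74.2 FPKM in cKO and 173, 98.5 and 109 FPKM in WT (log2 difference -0.43, limma adjusted p = 0.474). Ier2 had 33.6, 32.4 and 32.4 FPKM in cKO and 52.5, 33.3 and 41.3 FPKM in WT (log2 difference -0.34, limma adjusted p = 0.439). Jun was the exception, with 34.7 ± 2.27 FPKM in cKO and 33.5 ± 4.202 FPKM in WT (SD, n = 3 each). With the length and GC trends removed the median of the list was -0.050, and Cebpb, at -0.30 as deposited, was then at 0.082.

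Among the 6 developmental transcription factors the median log2 difference was -0.27, 5 were negative and 3 were lower at an unadjusted limma p under 0.05. At that threshold 23.8% of all members and 7.68% of all tested genes were lower. The median GC content of these factors was 57.4%. Mafa, a large Maf factor best known as an activator of insulin transcription, had 12.9, 11.8 and 11.9 FPKM in cKO and 25.7, 19.99 and 24.1 FPKM in WT. The groups were far apart, with a cKO mean at 52.4% of the WT mean and a log2 difference of -0.87 (SE 0.12, limma adjusted p = 0.232), the most negative of all members. The gene (ENSMUSG00000047591) is at chr15:75745490-75748228 on the minus strand (GRCm38), and no other annotated gene overlaps its exon. With the length and GC trends removed the difference was -0.55.

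Foxs1, a forkhead factor, had 32.6, 28.4 and 26.5 FPKM in cKO and 50.7, 33.7 and 37.4 FPKM in WT (log2 difference -0.45, limma adjusted p = 0.381). Its groups did not overlap. The SOX genes overlapped between groups. Sox4 had a log2 difference of -0.12, Sox12 of -0.19 and Sox11 of 0.026.

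Id1 and Scx belong to the basic helix-loop-helix family, Id1 as an inhibitor of its DNA binding and Scx, scleraxis, as a factor of tendon cells. Id1 had 39.4, 34.1 and 31.4 FPKM in cKO and 78.9, 42.0 and 51.3 FPKM in WT (log2 difference -0.66, SE 0.22, limma adjusted p = 0.379). Scx had 7.06, 7.89 and 7.30 FPKM in cKO and 14.6, 10.7 and 11.5 FPKM in WT (log2 difference -0.65, SE 0.13, limma adjusted p = 0.360). In both genes every cKO library lay below every WT library, and without WT replicate 1 the difference of Id1 was -0.41. GENCODE M21 lists a spliced transcript for each.

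RNA-binding proteins held some of the highest levels. Hnrnpa0, an hnRNP that binds AU-rich elements, had 244, 221 and 204 FPKM in cKO and 390, 271 and 331 FPKM in WT. The groups did not overlap (log2 difference -0.55, SE 0.17, limma adjusted p = 0.372), and with the length and GC trends removed the value was -0.40. Pcbp1, a poly(C)-binding protein, had 174, 159 and 164 FPKM in cKO and 200, 197 and 220 FPKM in WT (log2 difference -0.31, limma adjusted p = 0.392), and its value with the trends removed was -0.082. In the list of 8 nucleic acid binding genes the median was -0.076 and 1 gene, Hnrnpa0, was lower at an unadjusted limma p under 0.05. At that threshold 23.8% of all members and 7.68% of all tested genes were lower. Purb, a purine-rich element binding protein, had 24.2, 24.8 and 30.2 FPKM in cKO and 19.3, 25.2 and 24.4 FPKM in WT, and the groups overlapped (log2 difference 0.20, and 0.011 with the trends removed).

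**Figure D5:**
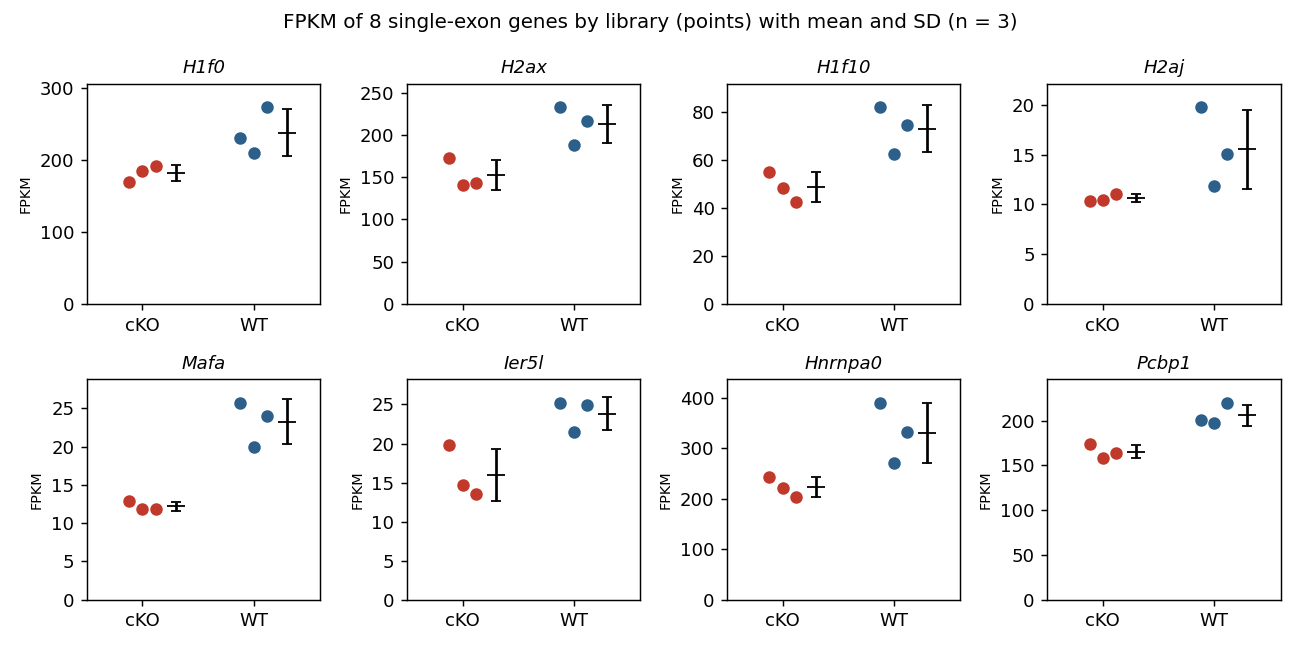
FPKM of 8 single-exon genes in each library (points), with the mean and SD of 3 libraries per group beside them (black). H2aj is a member for which GENCODE M21 also lists a spliced transcript. In all 8 genes every cKO point lies below every WT point; H1f0 averages 181 in cKO and 238 in WT, and Mafa 12.2 in cKO and 23.3 in WT.

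The remaining members with the most negative differences have varied roles. Rprml, a relative of the cell cycle gene reprimo, had 7.60, 4.21 and 6.43 FPKM in cKO and 15.7, 9.201 and 9.96 FPKM in WT (log2 difference -0.83, SE 0.24, limma adjusted p = 0.372). Tssc4, whose human protein assists assembly of the U5 spliceosomal particle, had 15.8, 13.2 and 10.99 FPKM in cKO and 28.0, 16.5 and 21.7 FPKM in WT (log2 difference -0.67, limma adjusted p = 0.372). Tbcc, a tubulin folding cofactor, had 13.2, 17.3 and 13.3 FPKM in cKO and 28.9, 18.6 and 21.2 FPKM in WT (log2 difference -0.60, limma adjusted p = 0.372). None of these groups overlapped, and in each gene WT replicate 1 was the highest library and WT replicate 2 the lowest of its group. Bola2, of iron-sulfur cluster delivery, had a log2 difference of -0.53 and the unnamed gene 2310039H08Rik of -0.71, again without overlap.

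At an unadjusted limma p under 0.05, 5 members were higher without overlap, and each was of low GC content or had a copy. Of all members 3.17% were higher at that threshold and 3.70% without overlap, against 4.65% and 8.69% of all tested genes. The share of all tested genes that met both conditions was not counted. Ranbp6, of the importin family, had 6.39, 8.11 and 7.57 FPKM in cKO and 5.32, 5.79 and 5.51 FPKM in WT (log2 difference 0.35, SE 0.12, limma adjusted p = 0.379). Spin4, of the spindlin family of histone readers, had 4.69, 6.62 and 6.12 FPKM in cKO and 4.34, 4.27 and 4.45 FPKM in WT (log2 difference 0.34, limma adjusted p = 0.393). The GC content of their transcripts is 41.1% and 35.3%, and with the length and GC trends removed the differences were 0.17 and 0.013. Gm7879, Gm10226 and Gm6169, with log2 differences of 0.73, 0.57 and 0.50, each have a near-identical copy. Klhl9, a kelch adaptor of a ubiquitin ligase, also showed no overlap, with 38.4, 44.6 and 45.4 FPKM in cKO and 36.4, 34.4 and 36.1 FPKM in WT (log2 difference 0.25, limma adjusted p = 0.410).

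Promoters are shown for Rprml and Ranbp6. Both have a promoter entry, no near-identical copy and an unadjusted limma p under 0.05. Among the members considered on these conditions, they had the lowest and the highest difference. The groups of neither gene overlapped, but this was not a condition of the choice. A member without a copy had a larger log2 difference of 0.36 at that threshold, with groups that overlapped. It was left out for its position in the genome, and its promoter is not shown. The sequences are the 250 bases before the RefSeq start on GRCm38.p6, at chr11:103649259-103649508 on the plus strand for Rprml and chr19:29812975-29813224 on the minus strand for Ranbp6, 5' to 3'. Capitals mark GGGCGG or its complement CCGCCC, the GC box.
Rprml: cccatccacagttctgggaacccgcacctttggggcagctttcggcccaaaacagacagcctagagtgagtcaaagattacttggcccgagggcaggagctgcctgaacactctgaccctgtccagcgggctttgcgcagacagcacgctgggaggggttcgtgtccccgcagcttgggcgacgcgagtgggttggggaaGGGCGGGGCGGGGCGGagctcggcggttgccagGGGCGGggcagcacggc
Ranbp6: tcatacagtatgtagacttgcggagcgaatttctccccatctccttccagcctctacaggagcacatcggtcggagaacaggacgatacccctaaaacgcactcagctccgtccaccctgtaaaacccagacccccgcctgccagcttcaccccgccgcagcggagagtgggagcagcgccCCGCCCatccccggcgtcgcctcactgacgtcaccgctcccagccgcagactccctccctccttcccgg
The stretches hold 66.8% and 63.6% GC, so both promoters are rich in GC although the transcripts hold 64.1% and 41.1%. A RefSeq promoter was matched for 134 of the 189 members. In windows of 250 bases before to 50 after the start, the GC box on either strand was in 64.2% of these and in 35.9% of 27025 promoters. CCAAT on either strand was in 38.8% of the members' windows and 37.9% of all, and TATAAA on the sense strand in 5.97% and 8.88%. The median GC content was 60.8% in the members' windows and 52.7% in all. The 27025 promoters were not limited to genes expressed here or to protein-coding genes, as the members are.

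Of the 8 ribosomal protein genes, 6 had a positive difference (median 0.18), and 0 passed an unadjusted limma p of 0.05. The median was 0.00016 without cKO replicate 2. It was 0.41, 0.026 and 0.045 when WT replicate 1, 2 or 3 was left out. Rps27rt, Rpl9-ps6, Rps18-ps5, Rpl10l and Rpl10-ps3 have near-identical copies. Rps27rt, the member with the highest mean and a near-identical relative of Rps27, had 386, 792 and 268 FPKM in cKO and 253, 282 and 277 FPKM in WT. The log2 difference of 0.68 was 0.25 without cKO replicate 2. Rpl9, a large subunit protein, had 171, 194 and 169 FPKM in cKO and 280, 161 and 190 FPKM in WT, and Rps13, a small subunit protein, had 125, 151 and 122 FPKM in cKO and 210, 119 and 144 FPKM in WT. In both genes WT replicate 1 was the highest library, and without it the log2 differences of -0.20 and -0.21 became 0.023 and 0.018.

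The 4 heat shock and chaperone genes had a median log2 difference of -0.063. Hspa1b, an inducible HSP70, had 22.7, 19.9 and 19.9 FPKM in cKO and 19.0, 20.1 and 24.6 FPKM in WT, and its near-identical neighbour Hspa1a had 9.04 ± 0.811 FPKM in cKO and 8.82 ± 0.748 FPKM in WT (SD, n = 3 each).

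Of the 5 receptors and channels 4 had a negative difference (median -0.15), and 1, Kcne1l, was lower at an unadjusted limma p under 0.05. With the GC trend removed their median was 0.017. Of all members 23.8% were lower at the unadjusted threshold, and of all tested genes 7.68%. Cldn5, a tight junction claudin known from endothelium, had 16.7, 14.5 and 15.3 FPKM in cKO and 31.4, 16.9 and 20.2 FPKM in WT (log2 difference -0.49, limma adjusted p = 0.405), while the 4 endothelial markers had a median of -0.054. The difference of Cldn5 was -0.24 without WT replicate 1 and -0.20 with the length and GC trends removed. Kcne1l, a potassium channel subunit, had 17.0, 14.1 and 16.4 FPKM in cKO and 20.9, 19.1 and 23.5 FPKM in WT (log2 difference -0.39, limma adjusted p = 0.378). The Wnt receptors overlapped between groups, with log2 differences of -0.15 for Fzd2, 0.075 for Fzd1 and -0.096 for Fzd7. Rhob, a small GTPase, had 115 ± 5.08 FPKM in cKO and 126 ± 8.88 FPKM in WT (SD, n = 3 each), a log2 difference of -0.13.

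The 9 imprinted and MAGE genes had a median log2 difference of -0.16, 8 of 9 were negative and 0 passed an unadjusted limma p of 0.05. This equals the median of all members, and with the length and GC trends removed it was -0.014. Ndn, the imprinted gene necdin, had 45.5, 43.5 and 40.4 FPKM in cKO and 56.8, 41.5 and 47.4 FPKM in WT (log2 difference -0.16). Of the 6 ubiquitin ligase, BTB and kelch genes, Fbxl14, an F-box protein, had 13.3, 11.2 and 12.8 FPKM in cKO and 13.5, 15.8 and 19.0 FPKM in WT (log2 difference -0.34, limma adjusted p = 0.405). Its groups were separated by less than the spread within either. The 128 members in no list had a median of -0.16. At an unadjusted limma p under 0.05, 31 of them (24.2%) were lower and 6 (4.69%) higher. Of all tested genes 7.68% were lower and 4.65% higher.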

How the data were processed

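Per the labels' protocols, RNA of whole testis was extracted with Trizol and made into libraries with a SMARTER mRNA-Seq kit. The deposited file is a table of gene-level FPKM values made by the authors for 3 cKO and 3 WT libraries, with each gene's length, position and biotype. The submitters' processing notes name the builds GRCm38 and mm10, while no source used here states the aligner, counter or annotation. Table positions are not those of GRCm38 (1499 of 52081 shared identifiers had the same start), so positions come from GENCODE M21.

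FPKM times gene length gave whole reads for 100% of values within a tolerance of 0.01. Members had 16 to 33 reads at the lowest and medians of 513 to 633 per library, and precision is limited by 3 libraries per group. Differences are cKO minus WT from limma 3.58.1 in R 4.3.3, fitted to log2(FPKM + 1) values of 14238 genes (mean FPKM at least 1) with a variance trend over the mean. P-values were adjusted by Benjamini-Hochberg and called at 0.05. This procedure was tested on simulated data. Trends on length and GC content (longest transcript, known for 97.9% of tested genes) were natural splines with 5 degrees of freedom. Copies were found with BLAST 2.17.0 and overlaps with bedtools 2.31.1.

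Members and lists were chosen with earlier results of these data known. Genes were named by a rule: up to 12 members per direction with the largest difference among those with an unadjusted p under 0.05 and no overlap, the 5 highest means, up to 4 per member group by mean, up to 4 per pathway list by p, and those beside the limit. Amh, Cebpa, Sox11, H4c9, H2aj, Ccdc85b, Gpx1, Atf4 and Dynll1 were named after their values were seen. Other settings were other pseudocounts, filters and scalings, limma without trend or robust, limma voom on recovered reads, the replicate number as a block, leaving out each library, and other definitions of the members. Removal of the GC or length trend alone, and the splits by copies and by spliced transcripts, were added after the data were seen. The table lists genes, so splicing is not analysed here. Values of some members that the rule names are not reported here.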

Additional observations from a re-analysis of the deposited data

How the results depend on the processing

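The gap between single-exon and other protein-coding genes (-0.15 in median log2 difference) was negative in all 30 other settings, several of which (the filters, the variance models and the block) cannot change a member's difference and leave it as it was. It moved by more than the spread between libraries to -0.0485 with length and GC trends removed, to -0.0744 with the GC trend alone and to -0.0722 against other genes no longer than the 90th percentile of members, and it ran from -0.23 to -0.14 when 1 library was left out. The number of members past an adjusted p of 0.05 was 0 in all 21 fits, and limma voom called 1 of all genes. The number lower at an unadjusted p under 0.05 (45) was 23 with length and GC trends removed and 23 with the GC trend alone, and ran from 16 to 59 with 1 library left out. The number higher (6) ran from 3 to 10. With the replicate number as a block 40 were lower and 4 higher. Same-numbered samples correlated at 0.095, -0.33 and 0.39 in their deviations, which cannot decide whether the numbers pair the samples.

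Of 1467 values of named genes, 40 had the opposite sign, and none of these genes passed the threshold. With length and GC trends removed and with the GC trend alone, in this order, this was so for Cebpb (0.0819, 0.0701), Dnajc30 (0.0581, 0.0207), Fzd2 (0.0149, 0.0225), Hspa1b (0.196, 0.190), Rbm15b (0.0437, 0.0807), Rhob (0.04995, 0.0313), Rnf208 (0.152, 0.114), Rtl8b (0.166, 0.123), Rtl8c (0.0945, 0.0279) and Sox12 (0.0297, 0.0538), and for the medians of heat shock genes (0.127, 0.105) and nucleic acid binding genes (0.0177, 0.0327). With both trends removed it was so for H1f2 (0.0280), Kti12 (0.00417) and the median of ubiquitin ligase genes (0.0295), and with the GC trend alone for Fzd7 (0.0172) and the median of receptors and channels (0.0172). Hspa1b was also at 0.0397 on the TPM scale, 0.0330 after quantile normalization, 0.00177 in voom and 0.0423 with the length trend removed. With 1 library left out, the sign depended on the library in 10 genes: Dnajc30 ran from -0.200 to 0.0376, Fzd1 from -0.0467 to 0.169, H1f2 from -0.383 to 0.0108, Hspa1a from -0.0177 to 0.0994, Hspa1b from -0.0911 to 0.0870, Jun from -0.0261 to 0.145, Rpl22l1 from -0.112 to 0.602, Rpl9 from -0.374 to 0.0227, Rps13 from -0.392 to 0.0181 and Rtl8c from -0.367 to 0.0242. The cause was not tested.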
